A study of Caenorhabditis elegans with 27 samples.

Results

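The mRNA abundance of whole worms after RNAi against gld-4 was compared with that after control RNAi. The comparison covered all genes in 6 of the 27 libraries of the series, chosen by their labels: 3 gld-4(RNAi) and 3 control input libraries, input being the extract before it was loaded on a sucrose gradient. All animals were of the wild-type strain N2 and carried no mutation. They were fed from the first larval stage (L1) on HT115 bacteria and harvested as young adults, the day after the middle of the last larval stage (L4). The bacteria made double-stranded RNA against gld-4 or, in the control, carried the empty vector pL4440. The other input libraries came from gld-2(RNAi) animals, and the rest of the series from the nonpolysomal (NP) and polysomal (P) gradient fractions of the same 3 conditions.

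RNAi by feeding lowers an mRNA in most tissues and leaves the gene intact. Each library came from a population of whole worms, in which germ line, soma and the embryos held in the uterus were not separated. A lower level in such a bulk sample can mean fewer cells of a type or less RNA per cell, and these cannot be told apart. RNA was enriched on oligo(dT) beads, so that an mRNA lost from the animal and one recovered less well because of a shorter tail cannot be told apart either. The labels do not say that the 3 libraries of a group came from separate cultures, and p-values measure the spread between these libraries.

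GLD-4 is a cytoplasmic poly(A) polymerase (cytoPAP), an enzyme that adds adenosines to the tails of mRNAs already exported from the nucleus. It acts mainly in the germ line and has been tied there to the synthesis of the RNA-binding protein GLD-1 and of the Notch receptor GLP-1. GLD-2 is the other major cytoPAP of the C. elegans germ line. The comparison asks how far the abundance of mRNAs depends on GLD-4.

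The 6 libraries held 12160686 to 17751840 counts (median 15165246). Genes with a mean of at least 100 normalized counts over the 9 input libraries, 7418 in all, were treated as expressed, and the values below are normalized counts unless said otherwise. Libraries of replicate 1 stood apart in both groups. Their log counts correlated at 0.9075 to 0.9474 with those of replicates 2 and 3 of the same group, against 0.9946 and 0.9951 between replicates 2 and 3. Summed counts of 94 spermatogenesis genes, 1 of them at 0 in all 6 libraries, were 26562 in control library 1 and 9080 and 10781 in the others, and 55737, 12407 and 12442 in gld-4(RNAi). Summed counts of 174 cuticle collagen genes, 6 of them at 0, were likewise highest in library 1 of each group (425512 and 539116, against 248739 to 279537 in the other 4). Deviations from the group mean correlated at 0.725 to 0.831 between libraries with the same number. With numbers swapped, libraries 2 and 3 still correlated at 0.692 and 0.673. With library 1 apart in both groups, a pairing of libraries 2 and 3 by number cannot be shown. Counts of calls from a fit blocked on the replicate number are given beside those of the main fit.

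gld-4 mRNA itself was counted at 1634, 2556 and 2721 in the control libraries and at 127, 281.3 and 255.5 in gld-4(RNAi). Every gld-4(RNAi) library was below every control library, and library 1 was the lowest of both groups. The mRNA fell 10.6-fold (log2 fold change -3.40 ± 0.33 SE, edgeR quasi-likelihood adjusted p = 0.009). In gld-2(RNAi) it was counted at 905.8, 1790 and 1723.

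The second largest reduction was that of ZK858.2, the gene beside gld-4. In the WBcel235 annotation it lies on the opposite strand, and the annotated ends of the 2 genes abut. Its counts were 328, 582.4 and 624.1 in the control and 107.9, 127.8 and 130 in gld-4(RNAi), with no overlap, a 4.25-fold reduction (log2 fold change -2.09 ± 0.27, edgeR adjusted p = 0.0105). In the direct comparison of input libraries it was also lower in gld-4(RNAi) than in gld-2(RNAi), by -3.01 (edgeR adjusted p = 0.000198). Whether reads or silencing of gld-4 reach ZK858.2 was not tested. The other expressed genes of the same clone differed by less than 2-fold. trmt-6, for a tRNA methyltransferase subunit, fell by 0.71 on the log2 scale (edgeR adjusted p = 0.014), mel-26, for a substrate adaptor of CUL-3 ubiquitin ligase, rose by 0.66 (adjusted p = 0.031) and ZK858.6 by 0.60 (adjusted p = 0.0178), while clec-91 and ZK858.5 did not pass (adjusted p = 0.483 and 0.412).

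gld-1 mRNA rose in gld-4(RNAi), by less than 2-fold. It was counted at 21230, 20380 and 24330 in the control and at 31410, 33230 and 32220 in gld-4(RNAi), and the groups did not overlap. The rise was 0.53 ± 0.10 on the log2 scale (edgeR adjusted p = 0.0212). The log2 differences of glp-1 (0.34, adjusted p = 0.0784) and of gld-2 (-0.23, adjusted p = 0.558) did not pass the test. Of 13 expressed genes for cytoPAPs and their partners, gld-4 alone was lower (7.69%) and 5 higher (38.5%) at an adjusted p of 0.05. Among the higher was cpb-3, for a CPEB-type RNA-binding protein (0.58, edgeR adjusted p = 0.0213). Shares of all expressed mRNAs were 7.54% and 7.08%. With the replicate block 1 was lower and 6 higher (22.1% and 23.8% of all), and without library 1 of both groups 2 and 6 (26% and 22.2% of all).

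With calls set at an adjusted p up to 0.05 and a 2-fold or larger difference, 73 mRNAs were reduced (0.984% of the expressed) and 29 increased (0.391%). Without the fold threshold, 559 were lower (7.54%) and 525 higher (7.08%). The median change was 2.16-fold among the reduced mRNAs and 2.20-fold among the increased, and over all expressed mRNAs the median log2 fold change was 0.03. Only 6 mRNAs were reduced, and 6 increased, by 2.5-fold or more. In each of the 102 called mRNAs the groups did not overlap, a pattern that 18.5% of expressed mRNAs showed downward and 20.1% upward. With the replicate block, 96 mRNAs were reduced (1.29%) and 82 increased (1.11%), including all of the 73 and 27 of the 29.

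The number of calls depended on which libraries were in the fit. Without control library 2, or gld-4(RNAi) library 2 or 3, edgeR called 0 mRNAs (lowest adjusted p 0.0758, 0.0565 and 0.0517), although 1666, 1850 and 1953 had an unadjusted p under 0.05. All counts of list members past the adjusted threshold given below are therefore 0 in these 3 fits too. Without control library 3, 45 were reduced and 8 increased, and without control library 1, 116 and 28. Leaving out library 1 of both groups gave 104 reduced (1.4%) and 49 increased mRNAs (0.661%), of which 58 and 16 were among the calls above. At the adjusted threshold alone 3577 mRNAs passed in that fit, against 1084 in the main fit.

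**Figure D1:**
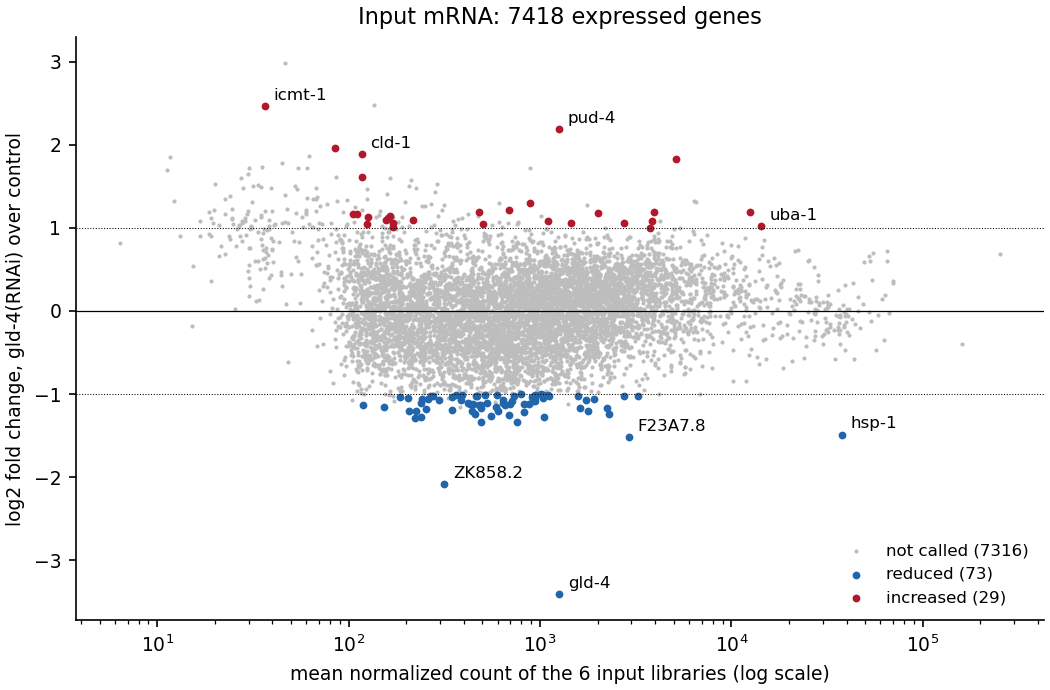
Log2 fold change of gld-4(RNAi) over control RNAi (y axis) against the mean normalized count of the 6 input libraries (x axis, log scale), 1 point per expressed gene. The 73 reduced mRNAs (blue) and 29 increased mRNAs (red) lie past the dotted lines at 2-fold, most of them close to these lines, and gld-4 and ZK858.2 lie farthest below.

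The reduced mRNA with the highest count was hsp-1, for the constitutive cytosolic HSP70 chaperone. It was counted at 50890, 56620 and 59300 in the control and at 16400, 22560 and 21510 in gld-4(RNAi), a 2.81-fold reduction (log2 fold change -1.49 ± 0.14, edgeR adjusted p = 0.009). The groups were well apart, and in gld-2(RNAi) the counts of 56800, 56630 and 65360 were in the range of the control or above it. The direct difference between gld-4(RNAi) and gld-2(RNAi) was -1.71 on the log2 scale (edgeR adjusted p = 0.000277). Of the 48 expressed HSP70, HSP90 and HSP60 chaperone and co-chaperone genes, 5 were lower and 2 higher at the adjusted threshold, with a list median of -0.01. These shares of 10.4% and 4.17% were near the 7.54% and 7.08% of all expressed mRNAs, and with the replicate block 11 and 12 of the 48 passed, near the 22.1% and 23.8% of all. The co-chaperones sti-1 (-1.02 ± 0.22, adjusted p = 0.0291), which links HSP70 to HSP90, and dnj-9 (-1.04 ± 0.15, adjusted p = 0.0139), a J-domain protein, were also reduced by 2-fold. dnj-5, another J-domain gene, rose by 0.72 (adjusted p = 0.0123).

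Several other leading reductions belonged to genes of general cell functions. cdc-48.3, for an AAA ATPase of the CDC-48 family, was counted at 697.4, 692.2 and 709.4 in the control and at 267.8, 302.8 and 275.8 in gld-4(RNAi), and its log2 fold change was -1.33 ± 0.12 (edgeR adjusted p = 0.009). adsl-1, for adenylosuccinate lyase of purine synthesis, went from 1569, 1444 and 1430 to 625.5, 676.4 and 556.2 (-1.28 ± 0.12, adjusted p = 0.009). In both genes the libraries of each group lay close together and far from the other group. ruvb-1, for a RuvB-like AAA ATPase that helps to assemble box C/D snoRNPs and chromatin remodelers, had counts of 2930, 3234 and 3474 against 1227, 1542 and 1363 (-1.25 ± 0.11, adjusted p = 0.009). nsun-5, whose product methylates ribosomal RNA, was reduced by -1.28 ± 0.26 (adjusted p = 0.0238), with its highest count of each group, 440.1 and 157.7, in library 1.

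The remaining leading reductions had less well known products or regulatory roles. F23A7.8, without a name, fell from 4633, 3718 and 4522 to 1267, 1797 and 1498 (-1.52 ± 0.15, edgeR adjusted p = 0.009). The homeobox gene ceh-92 (-1.34), smcr-8, homologous to the autophagy-linked human SMCR8 (-1.29), the RNA-binding protein gene fubl-4 (-1.26), the SET domain gene set-29 (-1.21) and the unnamed genes M04B2.4 (-1.24) and F44E7.5 (-1.22) had adjusted p-values of 0.009 to 0.0178. smcr-8 and cdc-48.3 each share a few exon bases with a gene on the opposite strand in the WBcel235 annotation. The study calls its sequencing not strand-specific but names a library kit that keeps the strand, and the strand setting of the counting was not given in the sources used here. If strand was not used, reads from such a stretch cannot be assigned to either gene. Of the 102 called mRNAs, 31 share exon bases with another gene in that annotation. Besides those 2 and genes marked where they are described below, F44E7.5, mrpl-10, mrpl-39, eif-3.D, abcf-3, gut-2, elpc-3, elpc-4, uba-1, pst-2, nhr-47 and F49C12.11 are among them, and so are snpc-1.3, warf-1 and rrp-1 of the genes of low count.

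**Figure D2:**
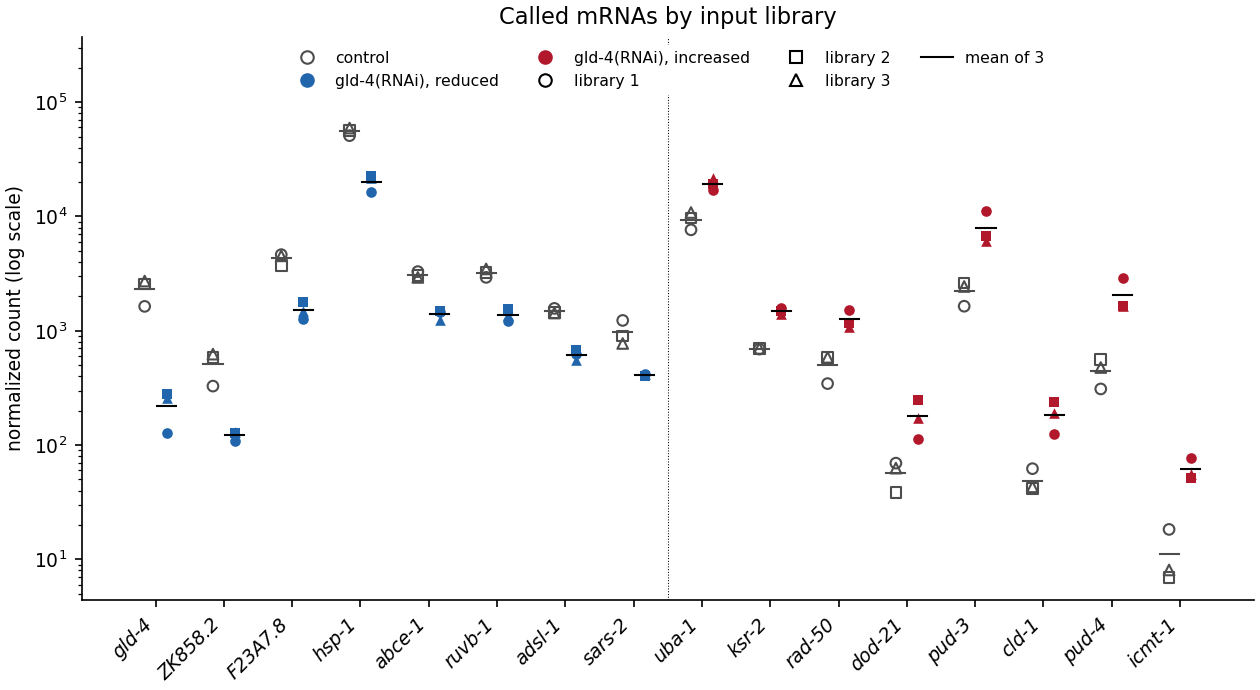
Normalized counts (y axis, log scale) of 16 called mRNAs in the 3 control (open grey) and 3 gld-4(RNAi) input libraries (blue where reduced, red where increased), with horizontal lines at the mean of 3 and the shape marking the library number. Groups do not overlap in any of the 16. In gld-4, ZK858.2, hsp-1, rad-50, pud-3, cld-1, pud-4 and icmt-1, library 1 of both groups lies farther from the others than libraries 2 and 3 from each other.

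Of the 26 gene lists examined, the lowest median was that of mitochondrial ribosomal proteins, the proteins of the ribosome that translates mitochondrially encoded mRNAs. Of 63 expressed members, 40 were lower and 0 higher at the adjusted threshold of 0.05, against 7.54% and 7.08% of all expressed mRNAs, and 6 were reduced by 2-fold. Their median log2 fold change was -0.77, and it was between -0.83 and -0.72 when any 1 library was left out and -0.73 without library 1 of both groups. With the replicate block, 58 were lower and 0 higher (22.1% and 23.8% of all expressed). In 53 of the 63, every gld-4(RNAi) library was below every control library, where 18.5% of all expressed mRNAs showed this. Summed over all 66 members, counts were 58031, 53670 and 53924 in the control and 35559, 37756 and 35233 in gld-4(RNAi). In gld-2(RNAi), whose comparison uses the same control libraries, the sums of 55389, 51474 and 54298 lay near the control.

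Both ribosomal subunits of the mitochondrion were represented. For the large subunit, mrpl-10 was counted at 949.8, 931.4 and 965.4 in the control and at 429.7, 453.1 and 444.6 in gld-4(RNAi) (log2 fold change -1.12 ± 0.11, edgeR adjusted p = 0.009). For the small subunit, mrps-5 went from 1665, 1622 and 1721 to 915.5, 868.6 and 850.4 (-0.95 ± 0.10, adjusted p = 0.009), short of 2-fold. In both, the spread within a group was a small part of the gap between groups. mrpl-17 (-1.08), mrpl-39 (-1.07), mrpl-4 (-1.11), mrps-30 (-1.09) and mrps-7 (-1.02) were also reduced by 2-fold, with adjusted p-values of 0.0098 to 0.029. In a direct fit of gld-4(RNAi) against gld-2(RNAi) input libraries, added after the data had been seen, 36 of the 63 were lower in gld-4(RNAi) and 1 higher, where 20.8% and 25% of all expressed mRNAs were.

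mRNAs for the respiratory chain, the membrane complexes to which the mitochondrially made proteins belong, had a share of lower members near that of all expressed mRNAs in the main fit. Of 64 expressed members, 6 were lower (9.38%, against 7.54% of all) and 0 higher, and the median was -0.11. With the replicate block 23 were lower and 6 higher, where 22.1% and 23.8% of all were. ucr-2.3, for a core protein of complex III (-0.96 ± 0.14, edgeR adjusted p = 0.0132), and nduf-2.2, for a complex I subunit (-0.81 ± 0.10, adjusted p = 0.0107), had the smallest p-values. Summed counts of the whole list, 244571, 226141 and 234658 in the control and 240136, 220943 and 220153 in gld-4(RNAi), overlapped.

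Genes for building cytosolic ribosomes in the nucleolus formed the next group. Of 40 expressed members, 22 were lower (55%) and 0 higher, against 7.54% and 7.08% of all expressed mRNAs. The median was -0.59 (-0.66 to -0.57 with 1 library left out). With the replicate block 36 were lower and 0 higher (22.1% and 23.8% of all expressed). ruvb-1 alone passed 2-fold. ddx-27, for a DEAD-box helicase, was counted at 1281, 1239 and 1142 in the control and at 623.4, 618.4 and 625.3 in gld-4(RNAi) (-0.99 ± 0.11, edgeR adjusted p = 0.0092). nog-1, for a GTPase of large subunit assembly (-0.78 ± 0.09), and lpd-7, the homolog of the pescadillo assembly factor (-0.84 ± 0.10), had adjusted p-values of 0.0094. In both ddx-27 and lpd-7 the groups did not overlap. Of the 40, 28 had every gld-4(RNAi) library below every control library, against 18.5% of all expressed mRNAs. Summed counts of the list were 107964, 102674 and 105736 in the control and 71109, 69690 and 65623 in gld-4(RNAi), and 95986, 75720 and 80576 in gld-2(RNAi). Of the 40, 14 were lower and 2 higher in gld-4(RNAi) than in gld-2(RNAi), where 20.8% and 25% of all expressed mRNAs were.

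The structural proteins of the cytosolic ribosome showed fewer changes. Of 63 expressed members, rps-2 was lower (log2 fold change -0.57 ± 0.11, edgeR adjusted p = 0.0213) and 0 were higher, and the list median was -0.13. With the replicate block 7 were lower and 1 higher. Both fits were below the shares of all expressed mRNAs (7.54% and 7.08%, or 22.1% and 23.8% with the block). Without library 1 of both groups 33 were lower, with a median of -0.24, against 26% of all expressed mRNAs. Summed counts of all 65 members, 1941797, 1924523 and 2199295 in the control and 2119256, 1818268 and 1810777 in gld-4(RNAi), overlapped, and gld-4(RNAi) library 1 was the highest of its group.

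mRNAs for the translation apparatus around the ribosome were lower in larger numbers. Of 46 expressed translation factors, 18 were lower (39.1%) and 0 higher (30 and 2 with the replicate block), with a median of -0.37. Shares of all expressed mRNAs were 7.54% lower and 7.08% higher, or 22.1% and 23.8% with the block. The 4 reduced by 2-fold were abce-1, which splits ribosomes after termination, abcf-3, another ATPase of the ABC family, eif-3.D, a subunit of initiation factor eIF3, and eif-2Balpha, a subunit of the exchange factor for eIF2. abce-1 was counted at 3292, 3040 and 2927 in the control and at 1448, 1488 and 1241 in gld-4(RNAi) (-1.17 ± 0.11, edgeR adjusted p = 0.009). eif-3.D went from 3442, 3923 and 3679 to 1677, 1988 and 1832 (-1.03 ± 0.09, adjusted p = 0.009), and its counts in gld-2(RNAi) were 5698, 5616 and 6207, above the control. The germline cap-binding factor ife-1 (-0.74, adjusted p = 0.0098) and the elongation factor subunit eef-1B.2 (-0.85, adjusted p = 0.0092) were lower by less than 2-fold.

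Aminoacyl-tRNA synthetases, which charge tRNAs with amino acids, were lower in 13 of 33 expressed genes (39.4%) and higher in 0, with a median of -0.35. With the replicate block 19 were lower and 1 higher. Shares of all expressed mRNAs were 7.54% lower and 7.08% higher, or 22.1% and 23.8% with the block. The prolyl-tRNA synthetase gene pars-1 was counted at 2785, 2439 and 2210 in the control and at 1097, 1184 and 995.2 in gld-4(RNAi) (-1.21 ± 0.13, edgeR adjusted p = 0.0092). fars-3, for a subunit of phenylalanyl-tRNA synthetase, went from 2230, 2398 and 2390 to 1151, 1157 and 1075 (-1.07 ± 0.09, adjusted p = 0.009), and the mitochondrial seryl-tRNA synthetase gene sars-2 from 1231, 899.8 and 774.1 to 414.9, 403.7 and 416 (-1.26 ± 0.20, adjusted p = 0.0155). The groups of all 3 genes were apart, and in sars-2 the spread lay in the control. Of the 33, 20 had every gld-4(RNAi) library below every control library, against 18.5% of all expressed mRNAs. Summed counts of the list, at 69546, 68350 and 65706 in the control, were 49912, 56751 and 53709 in gld-4(RNAi) but 91380, 93341 and 97403 in gld-2(RNAi). In the direct comparison 28 of the 33 were lower in gld-4(RNAi) than in gld-2(RNAi) and 1 higher, where 20.8% and 25% of all expressed mRNAs were.

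The lists of the CCT chaperonin with prefoldin and of the RNA exosome also had medians below 0, with 0 members past 2-fold. Shares of all expressed mRNAs were 7.54% lower and 7.08% higher, or 22.1% and 23.8% with the replicate block. All 14 expressed genes of the CCT chaperonin and of prefoldin, which fold newly made actin and tubulin, had negative fold changes (median -0.33), where 47.8% of all expressed mRNAs did, and 4 of them passed the test (9 with the replicate block, and 0 higher in either fit). pfd-3 was the lowest of these (-0.96 ± 0.21, edgeR adjusted p = 0.0298). Of 12 expressed genes of the RNA exosome, the complex that trims and degrades RNA from its 3′ end, and of its cofactors, 6 were lower and 0 higher (8 and 0 with the block), with a median of -0.51. exos-7 went from 914.4, 829.6 and 721.1 to 392.6, 462.7 and 442.7 (-0.95 ± 0.14, adjusted p = 0.0143).

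The genes for enzymes that shorten poly(A) tails moved in both directions. Of 11 expressed deadenylase genes, 3 were lower (27.3%) and 2 higher (18.2%), or 5 and 3 with the replicate block. Shares of all expressed mRNAs were 7.54% lower and 7.08% higher, or 22.1% and 23.8% with the block. The CCR4-NOT subunit genes ntl-4 (-0.80 ± 0.10, edgeR adjusted p = 0.0107) and ntl-3 (-0.68 ± 0.12, adjusted p = 0.0189) and the PARN-type gene parn-2 (-0.77 ± 0.11, adjusted p = 0.0139) were lower. parn-1, whose product trims the 3′ ends of piRNAs, was increased from 87.78, 121.6 and 88.91 to 220.1, 239.4 and 186.3 (1.09 ± 0.22, adjusted p = 0.0245), and its exons overlap frpr-15 on the opposite strand. Among 8 expressed Lsm genes, 2 were lower and 1 higher (4 and 1 with the block). gut-2, for the LSM2 subunit of the rings that bind U6 snRNA and decaying mRNAs, was reduced by 2-fold (-1.01 ± 0.17, edgeR adjusted p = 0.0189), and lsm-1 was higher (0.53 ± 0.09, adjusted p = 0.0191).

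Proteasome, nuclear transport, DNA replication and meiotic genes passed in the main fit in shares near or below the 7.54% lower and 7.08% higher of all expressed mRNAs. With the replicate block 22.1% and 23.8% of all passed, and the block counts below are to be read against these. Proteasome subunits gave 1 lower and 1 higher mRNA of 33, or 3.03% each (9 and 4 with the replicate block). The list of CDC-48, the segregase that delivers proteins to the proteasome, and its cofactors had larger shares in the main fit. Of 12 expressed genes, 2 were lower (16.7%), cdc-48.3 and ubxn-2, and 4 higher (33.3%), among them cdc-48.1 (4 and 4 with the block). In nuclear transport, 2 of 39 were lower (5.13%) and 4 higher (10.3%), or 7 and 13 with the block. At either end were ran-4, for the import factor of RAN (0.85 ± 0.09, edgeR adjusted p = 0.0092), and the nucleoporin gene npp-24 (-0.83 ± 0.10, adjusted p = 0.0098). Of 32 expressed DNA replication genes, 0 were lower and 2 higher (6.25%), or 4 and 8 with the block, with rpa-1, for the large subunit of the single-strand binding complex, at 0.57 ± 0.10 (adjusted p = 0.0178). Of 26 expressed genes of the meiotic axis, synaptonemal complex and crossover formation, htp-3, for an axis protein, was lower (-0.77 ± 0.19, adjusted p = 0.0427), which is 3.85%, and 0 were higher (4 and 3 with the block). Germline sex determination had 4 lower of 18 (22.2%) and 0 higher, or 6 and 3 with the block, among them nos-3, for a Nanos-type RNA regulator (-0.80 ± 0.13, adjusted p = 0.0172), and mog-4, for an RNA helicase (-0.56 ± 0.11, adjusted p = 0.0235).

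**Figure D3:**
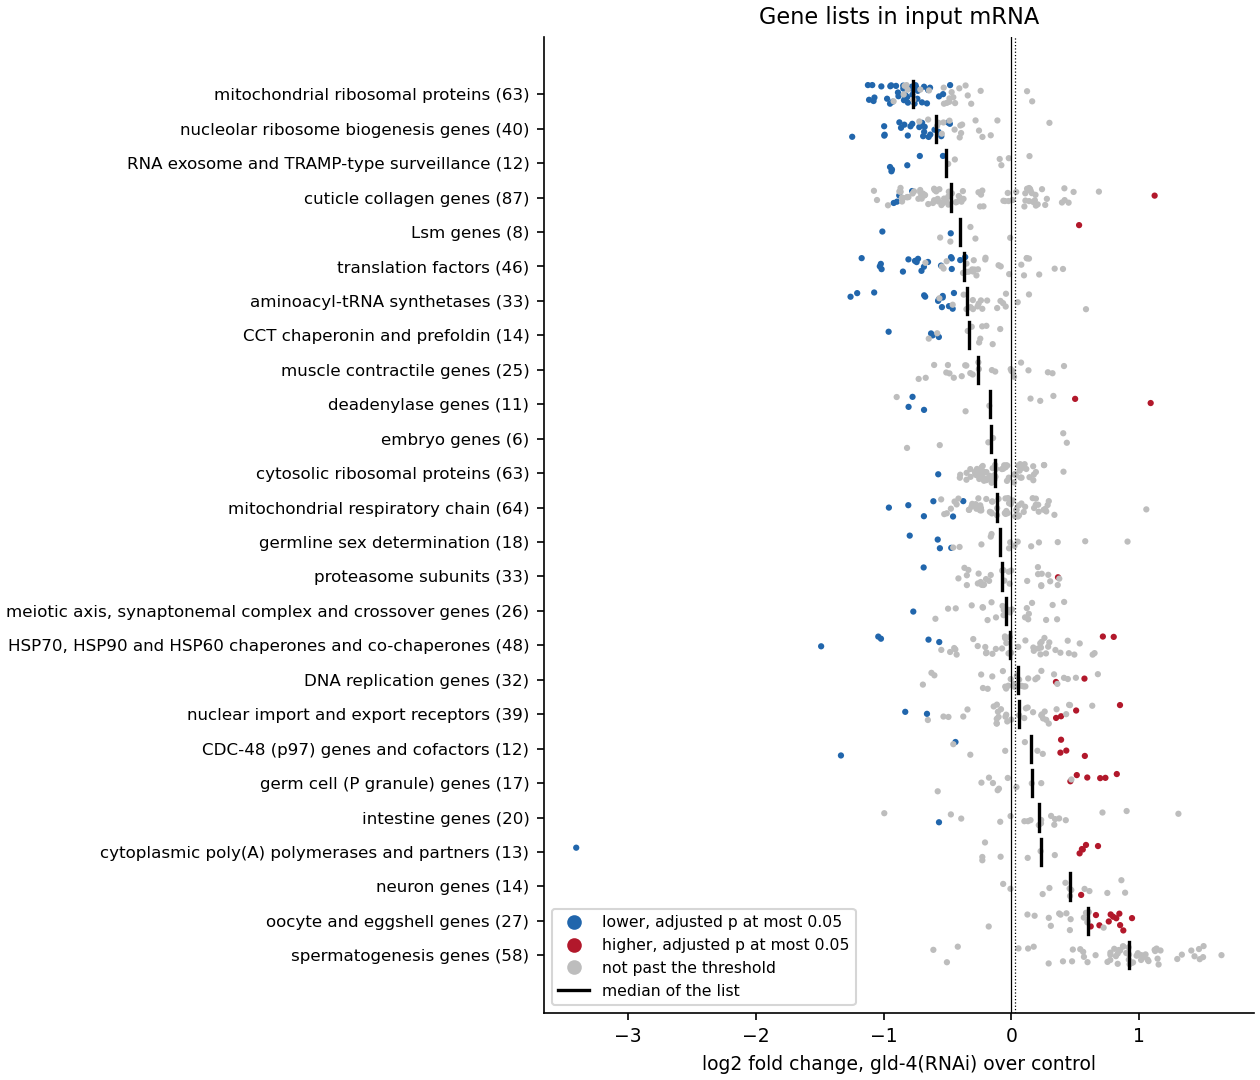
Log2 fold changes of gld-4(RNAi) over control RNAi (x axis) of the expressed members of 26 gene lists (y axis, number of members in brackets), 1 point per gene, with the list median as a black bar and the median of all expressed genes as a dotted line. Mitochondrial ribosomal proteins have the lowest median (-0.77, 40 of 63 members lower in blue), and oocyte and eggshell genes lie mostly to the right (11 of 27 higher in red).

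Most of the reduced mRNAs, 53 of 73, belonged to none of the lists. Those named in this paragraph were chosen after their values had been seen. They included more genes of ribosome assembly, bop-1 (-1.07), dcaf-13 (-1.05) and the helicase gene rha-2 (-1.11). elpc-3 (-1.12) and elpc-4 (-1.13) encode subunits of Elongator, which modifies the wobble base of tRNAs. Others act in RNA processing and quality control: cpsf-2 (-1.12) in cleavage before polyadenylation, prp-21 (-1.01) in splicing and smg-9 (-1.02) in nonsense-mediated decay. polg-1 (-1.07) encodes the mitochondrial DNA polymerase, and map-1 (-1.05) a methionine aminopeptidase. him-14 (-1.04), for a MutS-type crossover protein, shares exon bases with nos-2 on the opposite strand. The edgeR adjusted p-values of these genes were 0.009 to 0.0406.

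In the other direction, mRNAs of oocytes and of the eggshell were higher. Of 27 expressed members, 11 were higher (40.7%) and 0 lower, against 7.08% and 7.54% of all expressed mRNAs. With the replicate block 24 were higher and 0 lower (23.8% and 22.1% of all expressed). The median was 0.60, between 0.49 and 0.73 with any 1 library left out. No member reached 2-fold. egg-5, for a pseudophosphatase of the oocyte surface needed at fertilization, was counted at 4144, 4245 and 4375 in the control and at 6797, 8120 and 8369 in gld-4(RNAi) (0.84 ± 0.10, edgeR adjusted p = 0.0105). chs-1, for the chitin synthase of the eggshell, went from 6330, 6627 and 6061 to 10300, 11050 and 9801 (0.69 ± 0.09, adjusted p = 0.0121), and puf-3, for a Pumilio-family regulator of oocytes, from 7597, 8293 and 8671 to 13130, 15400 and 17240 (0.88 ± 0.12, adjusted p = 0.0128). All 3 genes had every gld-4(RNAi) library above every control library. So did 17 of the 27 members, where 20.1% of all expressed mRNAs showed this. The summed counts of the list, 265580, 322509 and 348772 in the control and 377499, 506554 and 546763 in gld-4(RNAi), did not overlap either, and were 86560, 128088 and 159998 in gld-2(RNAi). The part of this shift in the changes of other lists was not tested.

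Germ cell mRNAs of P granules, the RNA-rich bodies of germ cells, were higher in 6 of 17 (35.3%) and lower in 0 (7 and 1 with the replicate block). Shares of all expressed mRNAs were 7.08% higher and 7.54% lower, or 23.8% and 22.1% with the block. pgl-3, for a structural P granule protein, rose from 2784, 3054 and 3003 to 4316, 5966 and 5644 (0.82 ± 0.13, edgeR adjusted p = 0.0146), and mex-5, for an RNA-binding polarity protein, by 0.74 ± 0.15 (adjusted p = 0.0248). Summed counts of 196043, 211180 and 227442 against 194929, 265746 and 275100 overlapped through library 1.

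In the lists for other cell types few members passed in the main fit. Shares of all expressed mRNAs were 7.54% lower and 7.08% higher there, and 22.1% and 23.8% with the replicate block. Of 58 expressed spermatogenesis genes 0 passed in either direction. Their median of 0.92 turned to -0.51 without gld-4(RNAi) library 1, rose to 1.77 without control library 1 and was 0.33 without both. With the replicate block 36 were higher and 2 lower. Of 25 muscle contractile genes, 0 passed (11 lower and 0 higher with the block), with a median of -0.26 and summed counts of 83355, 58878 and 66698 against 80737, 44755 and 44538. Of 87 cuticle collagens, 4 were lower and 1 higher (47 and 6 with the block), and their median of -0.47 was 0.16 without control library 1. Intestine genes gave 1 lower of 20, spl-1 for sphingosine phosphate lyase (-0.57, edgeR adjusted p = 0.0206), and 0 higher (3 and 8 with the block), with a median of 0.22. Of 52 embryo genes 6 were expressed and 0 passed (2 and 2 with the block), with summed counts of the 52 at 7158, 7291 and 7604 against 8089, 9693 and 9070.

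Neuron genes lay mostly above 0. Of 14 expressed members 12 had positive and 2 negative fold changes, where 47.8% of all expressed mRNAs had negative ones. The median was 0.46, between 0.22 and 0.57 with any 1 library left out. In the main fit 1 was higher, snb-1 for synaptobrevin (0.55, edgeR adjusted p = 0.038), and 0 were lower. This share of 7.14% was near the 7.08% of all expressed mRNAs. With the replicate block 5 were higher and 0 lower (23.8% and 22.1% of all expressed). Summed counts of all 55 members, 7231, 7817 and 8637 in the control and 11986, 11040 and 10533 in gld-4(RNAi), did not overlap. The part of these neuronal, other somatic and sperm mRNAs in the calls was not tested.

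Of the 29 increased mRNAs, icmt-1 and F15E6.3 averaged under 100 counts in the 6 libraries compared (36.4 and 85.2) and were counted as expressed only through their gld-2(RNAi) libraries. icmt-1, for an isoprenylcysteine methyltransferase, was counted at 18.29, 6.922 and 8.082 in the control and at 77.26, 51.54 and 56.26 in gld-4(RNAi), 5.51-fold higher (log2 fold change 2.46 ± 0.62, edgeR adjusted p = 0.0431). The adjusted p was 0.0521 in a fit on all 9 input libraries, and DESeq2 gave none. Its counts in gld-2(RNAi) were 875.5, 209.3 and 214.6, and library 1 was highest in each of the 3 conditions.

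pud-3 and pud-4, named for proteins that are upregulated in long-lived daf-2 insulin receptor mutants, rose together, and pud-4 had the largest increase among mRNAs that averaged 100 or more in the 6 libraries. pud-4 was counted at 309.7, 558.7 and 476.9 in the control and at 2915, 1647 and 1642 in gld-4(RNAi) (4.57-fold, 2.19 ± 0.32, edgeR adjusted p = 0.0139). pud-3 went from 1639, 2626 and 2440 to 11110, 6719 and 6113 (3.54-fold, 1.82 ± 0.29, adjusted p = 0.0157). In both genes library 1 was the lowest control and the highest gld-4(RNAi) library, and unique reads may not divide such members of one small family reliably. dod-21, a gene named as downstream of the insulin-regulated factor DAF-16, went from 69.5, 38.56 and 62.86 to 113.2, 248 and 172.5 (3.06-fold, 1.61 ± 0.38, adjusted p = 0.0358), and its neighbor cld-1 from 62.18, 41.53 and 43.11 to 125.9, 239.4 and 189.1 (3.70-fold, 1.89 ± 0.33, adjusted p = 0.019). sod-3, for a mitochondrial superoxide dismutase and a target of DAF-16, was counted at 63.4, 75.15 and 64.66 against 166.2, 150.3 and 146.7 (1.17 ± 0.23, adjusted p = 0.023), with exon overlap to 2 genes on the opposite strand. A link to DAF-16 does not give these genes a common direction of regulation, and their regulation by it was not tested.

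Other increases concerned genes of general or germline function. uba-1, for the E1 enzyme that activates ubiquitin, was counted at 7636, 9664 and 10820 in the control and at 17150, 19170 and 21500 in gld-4(RNAi) (1.02 ± 0.15, edgeR adjusted p = 0.014). ksr-2, for a scaffold of germline Ras-ERK signaling, went from 691.3, 695.1 and 700.5 to 1593, 1495 and 1404 (1.08 ± 0.11, adjusted p = 0.009). The groups of both genes lay far apart relative to their spread. rad-50, for a subunit of the MRN complex of DNA break repair, went from 345, 583.4 and 585.5 to 1531, 1166 and 1083 (1.30 ± 0.25, adjusted p = 0.0214), farthest apart in library 1. sqv-1, for an enzyme of glycosaminoglycan precursor synthesis (1.18 ± 0.18), and pst-2, for a transporter of the sulfate donor PAPS (1.21 ± 0.15), were increased at adjusted p-values of 0.0144 and 0.0105. nhr-47, for a nuclear hormone receptor, and the unnamed genes F15E6.3, R02F2.1, B0001.5, F49C12.11 and Y37H2A.14 completed the 15 largest increases, from 1.14 to 1.96 on the log2 scale. F15E6.3 lay lowest in library 1 of each group (24.38 and 64.56).

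Genes that averaged under 100 counts over the 9 input libraries were examined in a separate fit of 11570 genes with a mean of at least 10, in which 0.303% were increased and 0.7% reduced. Outside the expressed genes, 13 were increased and 1 reduced. The largest increase was that of fog-3, a gene of the Tob family that directs germ cells to become sperm. Its normalized counts were 4.877, 3.955 and 2.694 in the control and 125.9, 156.8 and 125.4 in gld-4(RNAi) (log2 fold change 5.08 ± 0.34, edgeR adjusted p = 0.0118). These stood for 4, 4 and 3 reads against 119, 146 and 136. All gld-4(RNAi) libraries were at a similar level, and the gld-2(RNAi) libraries were at 62.61, 13.2 and 14.37. The gain was also present in the gradient fractions, where NP counts were 8.419, 8.775 and 3.877 against 139.2, 122.1 and 132.5 (4.21, adjusted p = 0.00538) and P counts 8.116, 5.211 and 8.44 against 77.44, 85.64 and 85.6 (3.50, adjusted p = 0.047).

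snpc-1.3, for a transcription factor subunit of male-germline piRNA genes, was increased from 26.82, 27.69 and 36.82 to 160.9, 170.7 and 157.7 (2.37 ± 0.24, edgeR adjusted p = 0.0118). The control and gld-4(RNAi) groups were narrow and far apart, as in fog-3. mtl-1, for a metallothionein, was counted at 2.438, 7.91 and 8.98 against 45.51, 36.5 and 39.66 (5.89-fold, adjusted p = 0.0364). The histone H3 gene his-42 (6.47-fold), F07B7.2 (5.35-fold), the F-box gene fbxa-203 (4.58-fold), warf-1, for an ARF-like GTPase (4.08-fold), and K09F6.9 (3.85-fold) had adjusted p-values of 0.0189 to 0.0427. his-42 and fbxa-203 belong to families of similar genes, so that their unique reads are uncertain. rrp-1, for a factor of ribosomal RNA processing, was the reduced one, at 141.4, 98.88 and 80.82 against 37.04, 35.43 and 28.59 (3.27-fold lower, adjusted p = 0.0312).

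**Figure D4:**
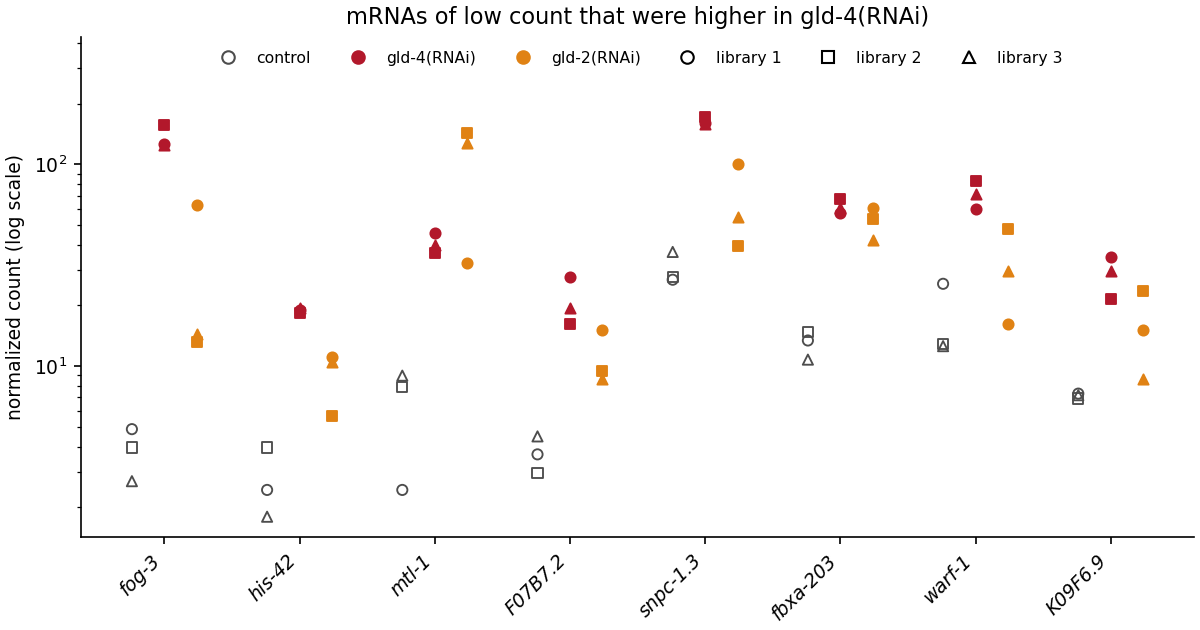
Normalized counts (y axis, log scale) in the 9 input libraries of 8 genes under the expression limit that were increased in gld-4(RNAi), with control in open grey, gld-4(RNAi) in red, gld-2(RNAi) in orange and the shape marking the library number. In fog-3 the 3 gld-4(RNAi) libraries lie at 125.4 to 156.8, above the control at 2.694 to 4.877 and above all gld-2(RNAi) libraries.

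The calls in input were then read in the NP and P libraries, which the calls had not used. Of the 73 reduced mRNAs, 73 were below control in NP and 69 passed an adjusted p of 0.05 there, where 48.3% of all expressed mRNAs were below control and 15.2% passed. Their median log2 fold change was -0.89 in NP, against -1.11 in input and 0.02 over all expressed mRNAs. In P, 72 of the 73 were below control (47.8% of all), 16 passed (2.68% of all) and the median was -0.55. Of the 29 increased mRNAs, 29 were above control in NP and in P (51.7% and 52.2% of all). There 21 and 7 passed (9.68% and 1.12% of all), with medians of 0.90 and 0.68. Input was the extract before loading on the gradient, so the fractions can be further readings of the same animals and are not an independent repeat. Which libraries share an extract was not given. The mRNAs were picked by their input values, so medians of input and of the fractions are not on equal terms.

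Some mRNAs had values in the fractions unlike those in input. F23A7.8 had log2 fold changes of -2.76 in NP and -2.738 in P (edgeR adjusted p = 0.004 and 0.0342), against -1.52 in input. hsp-1 had log2 fold changes of -0.78 in NP (adjusted p = 0.0143) and -1.01 in P (adjusted p = 0.0543), both nearer to 0 than in input. pud-4 was higher in both (2.60 and 2.41, adjusted p = 0.0066 and 0.0423). Of the mitochondrial ribosomal protein mRNAs, 46 of 63 were lower in NP and 5 in P, with 0 higher in either, and of the nucleolar list 32 and 4 of 40. Among all expressed mRNAs, 15.2% were lower in NP and 2.68% in P. Whether these changes differed between input and fractions was not tested.

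**Figure D5:**
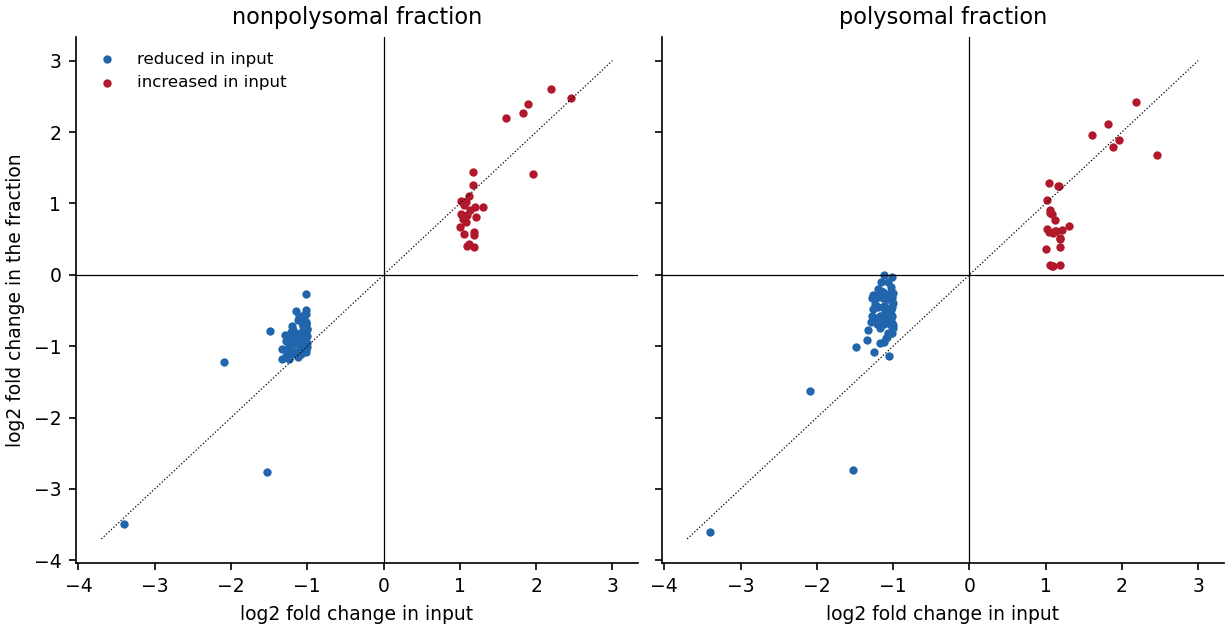
Log2 fold changes of gld-4(RNAi) over control RNAi in the nonpolysomal (left) and polysomal fraction (right, both y axes) against those in input (x axis) for the 73 reduced (blue) and 29 increased mRNAs (red) called in input, with the dotted line at equality. Of the reduced mRNAs all lie below 0 in the nonpolysomal fraction, with a median of -0.89, and they lie closer to 0 in the polysomal fraction, with a median of -0.55.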

How the data were processed

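Poly(A)-enriched RNA of whole N2 young adults was sequenced. According to the study's methods and the submitters' processing notes, the authors trimmed adapters, aligned reads to the C. elegans genome WS220 with TopHat2, kept reads with a single alignment and counted them per gene with featureCounts (Subread 1.4.0). The deposited table of raw counts (27 libraries, 45461 features) was used. Further deposited tables hold the authors' fold changes and p-values, made with DESeq under R 3.0.2, and the counts behind them. They were not used. Unique alignment makes counts of near-identical genes uncertain, as it does for genes that overlap, because the strand setting of the counting was not given in the sources used here. Names came from RefSeq locus tags (44080 features matched) and gene neighbors from the WBcel235 annotation, a later assembly than WS220, so that no positions are given.

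Genes that averaged 100 or more TMM-normalized counts in the 9 input libraries were taken as expressed and were tested with edgeR 4.0.16 (glmQLFit with robust = TRUE, glmQLFTest, TMM scaling, two-sided, R 4.3.3) on the 6 libraries, without covariates as in the study, with Benjamini-Hochberg adjustment over all 7418. The thresholds for a call were 0.05 for the adjusted p and 2-fold. Normalized counts are counts divided by the effective library size and multiplied by its mean over the 9 input libraries. The SE of a log2 fold change is its size divided by the square root of F. The NP, P and gld-2(RNAi) comparisons were fitted in the same way over the same genes, and genes of a mean of at least 10 in a fit of their own.

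Replicate numbers in the labels do not say what they share. Same-numbered libraries deviated together from their group means (correlations of 0.725 to 0.831, different numbers -0.79 to 0.692), and the replicate block takes the numbers as pairs. For libraries 2 and 3 the correlations were 0.725 and 0.726 with the same number and 0.692 and 0.673 with numbers swapped. With library 1 apart in both groups, these values cannot show that libraries 2 and 3 are paired by number. Replicates varied more than Poisson counts, so no library was the same library sequenced again. Libraries 2 and 3 of a group were closest (chi-square per degree of freedom 11.7 and 12.45, against 52.16 to 144.2 with library 1). Whether they shared RNA or a culture cannot be told from this. Alternatives were the replicate block, DESeq2 1.42.0, other scaling, filters and thresholds, and leaving out libraries. Counts were also simulated for this comparison over 7418 genes. Of genes changed by 1.5 on the log2 scale 81 of 100 were recovered, and of those changed by 3, 94 of 100, with 9 false calls. The simulated libraries varied independently, without the joint deviation of same-numbered libraries seen in the data. Recovery and false calls in the real libraries can therefore differ, and recovery near 2-fold was not measured.

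The comparison and the 26 gene lists were chosen with earlier results of these data known. The genes named are gld-4, its neighbors on clone ZK858 and genes the study ties to it, the 15 largest changes per direction that passed both thresholds and went the same way in all 3 same-numbered pairs, list members past both thresholds or with the smallest p, and up to 8 low-count genes per direction. The result for 1 of these genes is not reported here. The fit without library 1 of both groups, list counts at the adjusted threshold alone or with the block, and the direct fit against gld-2(RNAi) were added after the data had been seen. Figures were drawn with matplotlib 3.10.9.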

Additional observations from a re-analysis of the deposited data

How the results depend on the processing

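The 73 reduced mRNAs became 122 with scaling to library size alone, which moved the overall median of log2 fold changes from 0.026 to -0.045 and the share of reductions among calls from 71.57% to 85.92%, with 20 increased. They became 111 when all genes with a count of 1 or more were tested (16 increased), 437 at 1.5-fold (268 increased) and 559 with no fold threshold (525 increased). Over the fits that left out 1 library, the reduced numbered 0 to 116 and the increased 0 to 38. With the replicate block, which takes same-numbered libraries as pairs, 96 were reduced and 82 increased, which is 53.93% reductions. Without library 1 of both groups 49 were increased, against 29. The size factors of DESeq2 in edgeR, DESeq2 itself, a fit on the 9 input libraries, a fit without robust estimation, a mean of at least 100 over the 6 libraries or of at least 10, and an adjusted p of 0.1 gave 72 to 88 reduced and 28 to 38 increased mRNAs. Of the single genes, clec-91 changed sign without library 1 of both groups (0.013), and gld-4 remained lower in every alternative. Over the fits without 1 library, list medians changed sign in 7 lists. They did so for spermatogenesis (-0.509 to 1.77), embryo (-0.273 to 0.063), intestine (-0.005 to 0.388) and cuticle collagen genes (-0.725 to 0.158), with the value opposite in sign to the main fit coming without gld-4(RNAi) library 1 in the first 3 lists and without control library 1 in the last. Medians near 0 changed sign for DNA replication (-0.031 to 0.133), HSP chaperone (-0.025 to 0.078) and nuclear transport genes (-0.018 to 0.119). For embryo genes the median was also above 0 without library 1 of both groups (0.054). The causes were not tested. Of the values of named genes under the alternatives, 470 kept their direction and side of the threshold, 144 no longer passed it and 6 newly did. For genes near the limit of 100 normalized counts and with changes near 2-fold, 3 libraries a group leave the call to the spread of single libraries.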

Other observations

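Among the genes under the expression limit, 2 increases outside the rule for named genes were noticed after their values had been seen. ser-1, for a serotonin receptor, was counted at 14.63, 12.85 and 13.47 normalized counts in control RNAi and at 45.51, 49.39 and 35.97 in gld-4(RNAi) (3.08-fold higher, edgeR adjusted p = 0.0401). In gld-2(RNAi) it was counted at 47.46, 226.3 and 243.4, with library 1 alone at the level of gld-4(RNAi). hil-1, for a linker histone, was at 41.45, 40.54 and 43.11 in control RNAi and at 94.19, 111.7 and 95.92 in gld-4(RNAi) (2.33-fold higher, edgeR adjusted p = 0.0338), and its counts in gld-2(RNAi), 118.1, 96.17 and 97.74, lay in the same range. In both genes every RNAi library was above every control library. For gld-4(RNAi) the calls rest on the same values, and 20.1% of the expressed mRNAs showed this pattern.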
